A study of Mus musculus with 12 samples.

Results

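The 10 genes described here are embryonic factors of 2 kinds: the pluripotency transcription factors Sox2, Pou5f1, Nanog and Sall4, and the oncofetal genes Lin28a, Lin28b, Igf2bp1, Igf2bp2, Igf2bp3 and Hmga2. They were chosen by name, and all 10 were found among the 24060 gene rows of the series. RNA was sequenced from 12 tumors, labelled by location as Retro-orbital (4 tumors), Cheek (3), Meninges (3), Vestibular N (1) and Trigeminal N (1). All came from P0-CreC;Smarcb1 flox/flox mice on an FVB/N background, in which Cre is active in neural crest cells and in the Schwann cell lineage. The tumors are rhabdoid tumors, which are cancers driven by loss of the SMARCB1 subunit of the SWI/SNF chromatin remodelling complex, and there were no normal tissue or control samples. The first parts of the tumor identifiers take 9 different values, so that cheek 1 and meninges 1, cheek 2 and cheek 3, and retro-orbital 3 and the trigeminal tumor share one; whether these came from the same animal, and the age of each animal, is not given in the sources used here. Single tumors are named below by location and a number in accession order.

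Sox2, Pou5f1 (Oct4) and Nanog form the core circuit of pluripotent stem cells, in which each factor binds the regulatory DNA of the others, and Sall4 is a zinc finger protein that works beside them. Sox2 is also used by neural progenitors and glia. The second set is built around let-7, a microRNA family that accumulates as cells differentiate. Lin28a and Lin28b bind let-7 precursors and block their maturation, let-7 in turn represses Lin28, Igf2bp and Hmga2 transcripts, the Igf2bp proteins bind and stabilise growth-related mRNAs, and Hmga2 is a chromatin protein that bends AT-rich DNA. These genes are active in the embryo, fall after birth and return in many cancers.

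The let-7 letters that tie the second set together are printed first, since 7 of the 10 genes carry their complement. Of 11 mature let-7 family members listed by RefSeq on GRCm38.p6, 10 share the seed at bases 2 to 8, shown in capitals in 4 examples.
let-7a-5p: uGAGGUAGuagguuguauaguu
let-7c-5p: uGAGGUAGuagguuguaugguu
let-7e-5p: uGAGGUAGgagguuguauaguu
let-7f-5p: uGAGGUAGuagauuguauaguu

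The complement of that seed, CTACCTC, was searched on the sense strand of the longest annotated GENCODE M21 untranslated region that follows each coding sequence. It was present 4 times each in Lin28b, Igf2bp1 and Hmga2, 2 times in Lin28a, and 1 time each in Igf2bp2, Igf2bp3 and Sall4. Sox2, Pou5f1 and Nanog held none. Over all 20913 genes with such a region, 8.98% held at least 1 match. Among genes whose region was of similar length, the share was 24.1% for the 4445 bases of Lin28b, 34.3% for the 6337 of Igf2bp1, 16.1% for the 3014 of Hmga2 and 12.0% for the 1784 of Igf2bp2. A match is a description of letters and not a measured site. One site each is shown for 5 of the 7 genes, Lin28b, the Igf2bp family and Hmga2, with the match in capitals, including a following A that lengthens it to 8 letters. All lie on the minus strand of GRCm38 and are written in the direction of the transcript.
Hmga2, chr10:120364220-120364246: gccgacattcaatttCTACCTCAgcat
Lin28b, chr10:45381018-45381044: acccgggcgggaagtCTACCTCAtgca
Igf2bp2, chr16:22059469-22059495: acacacaaataaaagCTACCTCAggtg
Igf2bp3, chr6:49086783-49086809: tgcatttttactcaaCTACCTCAggta
Igf2bp1, chr11:95961774-95961800: gctgtgcgaagtaaaCTACCTCAaggt

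Levels are given as RPKM, read numbers scaled to transcript length and to library depth, which allows genes of one tumor to be compared. Depth, taken as the fragment total that scales each tumor's values, was 13206168 to 57128422, worked out from the smallest steps in the deposited values. It is not the number of reads sequenced, for which the paper gives a higher and narrower range. RPKM worth 3 fragments is given below as the limit that a count of 0 allows; this covers counting error only. In a bulk tumor, fewer cells of a type and less RNA per cell cannot be told apart. Leukocyte genes were measured in every tumor, with a summed level of 8 genes from 660 RPKM in the vestibular tumor to 6029 RPKM in retro-orbital 2. Smarcb1 itself, whose floxed allele all tumors carry, was read at 1.70 RPKM in the vestibular tumor to 6.31 RPKM in meninges 3. The value covers the whole transcript and is not a check of the deletion.

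**Figure D1:**
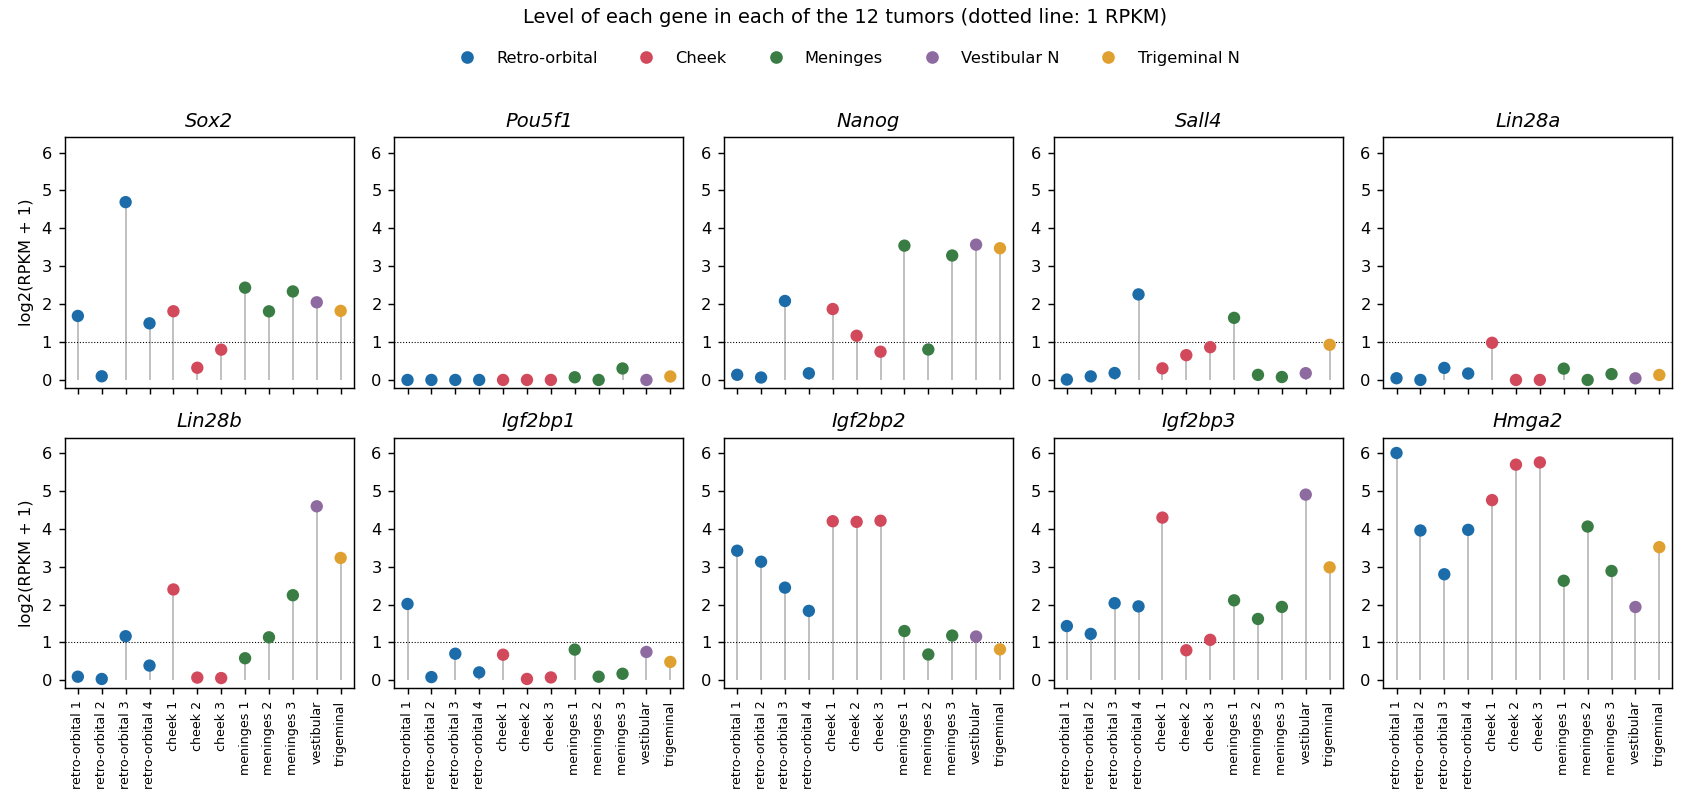
Level of each gene in each tumor as log2(RPKM + 1), with 1 panel per gene, tumors along the horizontal axis, colours for location and a dotted line at 1 RPKM. Hmga2 lies above the line in all 12 tumors, Pou5f1 and Lin28a in none, and Nanog, Lin28b and Sox2 spread from near 0 to well above it.

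Of the 4 pluripotency factors, Sox2 and Nanog were retained in most tumors and Pou5f1 was absent or nearly so. Sox2 reached 1 RPKM in 9 of 12 tumors, Nanog in 7, Sall4 in 2 and Pou5f1 in none. The pattern is read from the values of each tumor in turn.

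Sox2, the high mobility group factor of stem cells and neural progenitors, lies on chromosome 3 (34650405 to 34652461, GRCm38, plus strand), inside the long noncoding gene Sox2ot. Its retro-orbital values were 2.22, 0.0693, 24.9 and 1.82 RPKM. The cheek values were 2.51, 0.250 and 0.740 RPKM, the meninges values 4.41, 2.51 and 4.05, the vestibular value 3.14 and the trigeminal value 2.54. Retro-orbital 3 was thus far above all others, and retro-orbital 2 rested on 5 fragments against 3489 in retro-orbital 3. The median was 2.51 RPKM, and the retro-orbital tumors spanned the values of the cheek and meninges tumors. Sox2ot stayed between 0 and 0.807 RPKM, also highest in retro-orbital 3. Both genes are annotated on the plus strand, so strand alone does not tell their reads apart.

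Nanog, the homeodomain factor that holds cells in the naive pluripotent state, lies on chromosome 6 (122707489 to 122714633, plus strand). It was highest in 4 tumors: the vestibular tumor had 10.9 RPKM, meninges 1 had 10.7, the trigeminal tumor 10.1 and meninges 3 had 8.74. Retro-orbital 3 followed at 3.24 RPKM, and the cheek tumors had 2.66, 1.24 and 0.675. Meninges 2 had 0.746 RPKM, while retro-orbital 1, 2 and 4 had 0.0988, 0.0455 and 0.130, from 3 to 12 fragments each. High and low tumors were therefore found within the retro-orbital and the meninges groups. Nanog has annotated processed pseudogenes in the mouse, and reads that fit a copy as well as the gene were dropped by unique alignment, so its level is a lower estimate of unknown size.

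Pou5f1, which pairs with Sox2 on DNA, was listed at 0 in 9 tumors. The other values were 0.234 RPKM in meninges 3, 0.0655 in the trigeminal tumor and 0.0504 in meninges 1. At the depth of the 9 tumors at 0, a count of 0 allows up to 0.0732 RPKM in retro-orbital 3 and up to 0.317 in cheek 3, at the shortest length that makes the 12 values whole numbers of fragments. Pou5f1 lies on chromosome 17 (35506018 to 35510772, plus strand). In the 4 tumors with the highest Nanog, Pou5f1 was at most 0.234 RPKM.

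Letters that POU and Sox factors read lie side by side before Nanog. In the 250 bases before the start site of Nanog (chr6:122707239-122707488, GRCm38.p6, plus strand, RefSeq), the letters TTTGCAT, a core of the octamer that POU factors read,  begins at base -75 and the Sox letters CATTGT, read on the opposite strand, begin at base -67, both counted from the start site and shown in capitals.
Nanog promoter: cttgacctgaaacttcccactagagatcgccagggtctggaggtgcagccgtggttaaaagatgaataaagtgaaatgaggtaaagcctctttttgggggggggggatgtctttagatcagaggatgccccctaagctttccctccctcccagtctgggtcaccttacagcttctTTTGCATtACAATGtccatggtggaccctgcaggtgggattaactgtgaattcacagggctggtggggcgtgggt

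Searched on both strands, TTTGCAT was found in 4.12% and CATTGT in 10.7% of 32851 promoters of that length. Both within 3 bases of each other were found in 6 promoters, 2 of them the alternative starts of Nanog. The same windows before Sox2 held TTTGCAT 1 time and no CATTGT, and those before Pou5f1 held no TTTGCAT. The match says nothing of binding in these tumors.

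Sall4 lies on chromosome 2 (168748332 to 168767943, minus strand). It had 3.78 RPKM in retro-orbital 4 and 2.11 in meninges 1, and 0.903 or less in the other 10 tumors, down to 0.00728 in retro-orbital 1. Among its relatives, Sall2 was higher than Sall4 in 11 of 12 tumors, with Sall4 minus Sall2 at -2.44 ± 1.22 on the log2(RPKM + 1) scale (SD, n = 12; exact sign-flip permutation test, two-sided, p = 0.000977, adjusted over 8 pairs p = 0.0013). Sall1 and Sall4 did not differ beyond their spread (mean -0.08, SD 0.73; exact p = 0.717, adjusted p = 0.764), and the sign turned when 1 of 2 tumors was left out. Sox2 was above its nearest relative Sox3 in 12 of 12 tumors, by 1.61 ± 1.14 (SD; exact p = 0.000488, adjusted p = 0.000977).

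Levels on the wider pluripotency list were largely low. Of 24 partner genes, 9 reached 1 RPKM in 3 or more tumors and 9 stayed under 1 RPKM in all 12. Klf4, a reprogramming factor that is also made by epithelia and myeloid cells, had the highest median at 48.8 RPKM (4.45 to 90.004), followed by Klf2 at 13.5 and Klf5 at 4.10. Zfp42 (Rex1), Prdm14, Fgf4, Dppa2 and Lefty2, markers of naive or early embryonic cells, had medians of 0 and highest values of 0.117, 0.0650, 0.0927, 0.174 and 0.0685 RPKM. Of 9 germ cell markers, 5 reached 1 RPKM in 3 or more tumors, led by Tfap2c (median 5.29 RPKM), which other embryonic tissues also use, Sycp3 (1.89) and Prdm1 (1.13), while Ddx4 and Dazl reached at most 0.133 and 0.295 RPKM. The summed level of the 9 ran from 4.86 RPKM in retro-orbital 2 to 32.6 in meninges 1. Nr5a2, a nuclear receptor of the pluripotency network, ranged from 0.123 RPKM in retro-orbital 2 to 12.0 in the trigeminal tumor.

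The let-7 arm was represented by Lin28b and not by Lin28a. Lin28a reached 1 RPKM in no tumor, with 0 in 4 tumors and a highest value of 0.973 in cheek 1, and Lin28b in 6 tumors. In the 4 tumors at 0 for Lin28a, a count of 0 allows 0.0264 to 0.0653 RPKM.

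Lin28b lies on chromosome 10 (45376620 to 45486395, minus strand). The vestibular tumor had 23.1 RPKM and the trigeminal tumor 8.38, above the cheek values of 4.27, 0.0511 and 0.0420 and the meninges values of 0.498, 1.20 and 3.74. The retro-orbital values were 0.0683, 0.0252, 1.24 and 0.310 RPKM, and the lowest, in retro-orbital 2, rested on 4 fragments. Values thus ran from 3 to 3550 fragments, and the retro-orbital, cheek and meninges values overlapped. Lin28b was above Lin28a in 12 of 12 tumors, by 1.15 ± 1.44 on the log2(RPKM + 1) scale (SD, n = 12; exact p = 0.000488, adjusted p = 0.000977). The difference was as small as 0.04 in 1 tumor and as large as 4.55 in another. In retro-orbital 2, cheek 2 and cheek 3 the order rested on 4, 9 and 3 fragments of Lin28b against 0 of Lin28a. Averaging tumors that share an identifier, the 9 values gave 1.22, with an exact p of 0.00391 (adjusted p = 0.00781), the smallest p that 9 values allow.

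The enzymes that act on let-7 varied far less. All 10 genes of the let-7 pathway list reached 1 RPKM in 3 or more tumors. The list was led by Ddx3x (median 159 RPKM), an RNA helicase, Ptbp1 (88.1) and the terminal uridylyltransferase Zcchc6 (35.3; TUT7), which tags precursors for decay. Dis3l2, the nuclease that degrades tagged precursors, stayed within 9.12 to 12.9 RPKM, and Dicer1 within 7.73 to 16.9. Trim71 (Lin41), a let-7 target and stem cell protein, ran from 0.0146 RPKM in cheek 3 to 3.17 in retro-orbital 4. The longer precursor gene Mirlet7bhg was read at 1.87 to 15.6 RPKM; mature let-7 was not measured by this kind of library. No gene of the list passed a location test.

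The Igf2bp family was led by Igf2bp2 and Igf2bp3. Igf2bp3 reached 1 RPKM in 11 of 12 tumors, Igf2bp2 in 10 and Igf2bp1 in 1. Igf2bp1 (chromosome 11, 95957163 to 96005940, minus strand) had 3.04 RPKM in retro-orbital 1 and at most 0.755 elsewhere, with a median of 0.278.

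Igf2bp2, the most widely expressed of the family in adult tissue, lies on chromosome 16 (22059009 to 22163299, minus strand). The cheek tumors had 17.4, 17.2 and 17.5 RPKM. The retro-orbital tumors had 9.71, 7.76, 4.45 and 2.56, and the meninges tumors 1.46, 0.605 and 1.27. The vestibular tumor had 1.23 RPKM and the trigeminal tumor 0.763. The 3 larger locations did not overlap at all. The cheek mean was 17.4 ± 0.192 RPKM (SD, n = 3). Some cheek tumors share an identifier, so the 3 may come from fewer animals and their SD may understate the spread between animals. The means were 6.12 ± 3.21 (n = 4) for retro-orbital and 1.11 ± 0.450 (n = 3) for meninges tumors.

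These levels were tested by limma on log2(RPKM + 1) over the 10 tumors of the 3 locations, across the 14745 genes that reached 1 RPKM in 3 or more of them. Of the 10 genes of interest, 6 passed that filter: Sox2, Nanog, Lin28b, Igf2bp2, Igf2bp3 and Hmga2. Pou5f1, Lin28a, Sall4 and Igf2bp1 did not and were not tested. Igf2bp2 was higher in cheek than in meninges by 3.14 ± 0.39 (SE) on the log2 scale, with an adjusted p of 0.0328. It was the only one of the 6 called without a term for shared identifiers. That fit counted cheek 2 and cheek 3, which share an identifier, as separate tumors, and likewise cheek 1 and meninges 1. With the identifier as a random block, which rests on few shared identifiers, limma also called Nanog (adjusted p = 0.0213), Lin28b (0.0335), Igf2bp3 (0.0115) and Hmga2 (0.00418) across locations, and Nanog (0.00955) and Hmga2 (0.00119) for cheek against meninges. Such calls were common in the blocked fit, which called 2802 of the 14745 genes across locations and 4243 for cheek against meninges. Among the 10 tumors only cheek 1 and meninges 1 share an identifier across locations. The blocked tests thus lean on that pair wherever cheek is set against meninges. For Igf2bp3 the pair had 18.6 and 3.32 RPKM, while cheek 2 and cheek 3 had 0.733 and 1.10, below all meninges tumors. Without the block, the background was 0.0475% of genes called for cheek against meninges (7 of 14745), 0.0271% for cheek against retro-orbital (4), 0.0203% for meninges against retro-orbital (3) and 0.0407% for the test across the 3 locations (6). Values not overlapping between cheek and meninges were common, in 28.7% of the genes, against 11.1% between retro-orbital and cheek and 9.23% between retro-orbital and meninges. All 3 locations were separate from one another in 0.475% of genes (70), Igf2bp2 among them. In the test across locations Igf2bp2 had an adjusted p of 0.0671, and it passed when retro-orbital 1, 3 or 4 or cheek 1 was left out (0.0381 to 0.0444). Against retro-orbital tumors, cheek was higher by 1.49 ± 0.37 (SE; adjusted p = 0.223) and meninges differed by -1.65 ± 0.37 (adjusted p = 0.273), neither of which passed. Leaving out 1 tumor ended the cheek against meninges call for cheek 2 (adjusted p = 0.234), cheek 3 (0.245), meninges 1 (0.121), meninges 2 (0.164) or meninges 3 (0.149), all with differences of 2.96 to 3.27; a pseudocount of 0.1 in place of 1 also ended it (3.93, adjusted p = 0.0798).

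**Figure D2:**
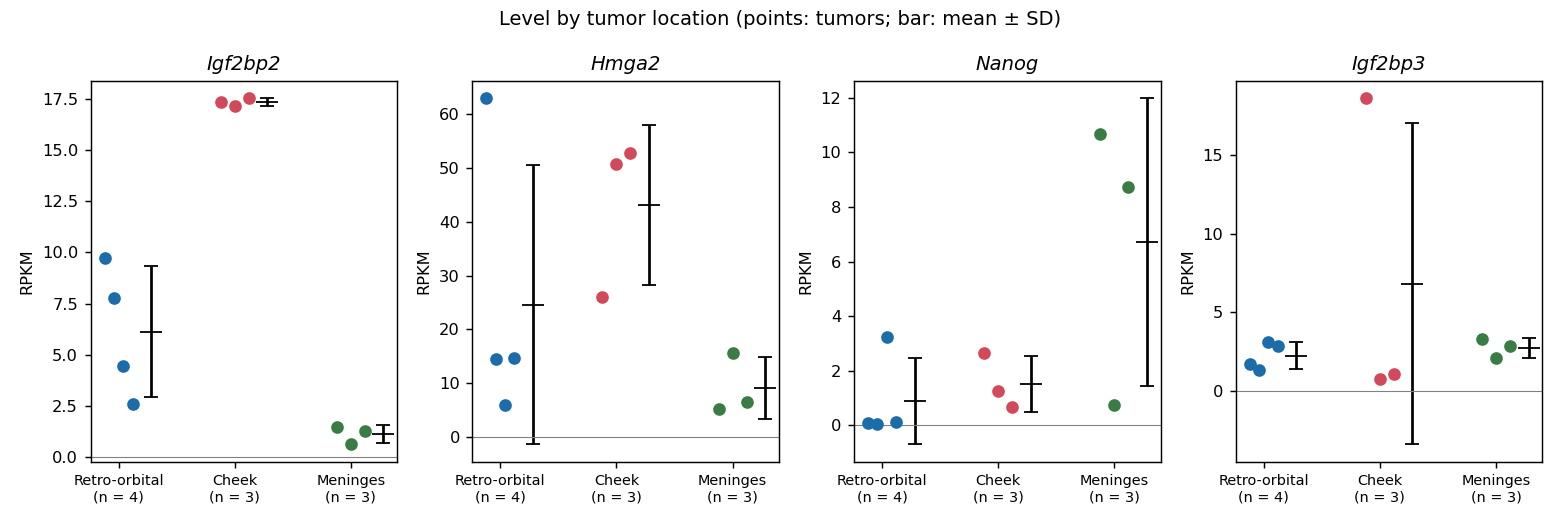
RPKM of Igf2bp2, Hmga2, Nanog and Igf2bp3 in the tumors of 3 locations, 1 point per tumor, with the mean ± SD in black beside them. The cheek tumors of Igf2bp2 lie within 17.2 to 17.5 RPKM, above all retro-orbital and meninges tumors, while for Igf2bp3 a single cheek tumor at 18.6 RPKM stands apart.

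Igf2bp3 lies on chromosome 6 (49085223 to 49214957, minus strand). The vestibular tumor had 28.9 RPKM, cheek 1 had 18.6 and the trigeminal tumor 6.90. The other cheek tumors had 0.733 and 1.10, the lowest of all, the retro-orbital tumors 1.70, 1.34, 3.10 and 2.87, and the meninges tumors 3.32, 2.07 and 2.83. Cheek 1 thus stood far above the other tumors of its location, and the test across locations gave an adjusted p of 0.924.

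Within tumors, Igf2bp2 exceeded Igf2bp1 in 12 of 12, by 1.87 ± 1.46 (SD; exact p = 0.000488, adjusted p = 0.000977), and Igf2bp3 exceeded Igf2bp1 in 11 of 12, by 1.69 ± 1.26 (exact p = 0.000977, adjusted p = 0.0013). The exception was retro-orbital 1. Igf2bp2 and Igf2bp3 had no common order (mean 0.18, SD 2.12, Igf2bp2 higher in 5 tumors; exact p = 0.764, adjusted p = 0.764). The differences ran from -3.75 in the vestibular tumor to 3.39.

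**Figure D3:**
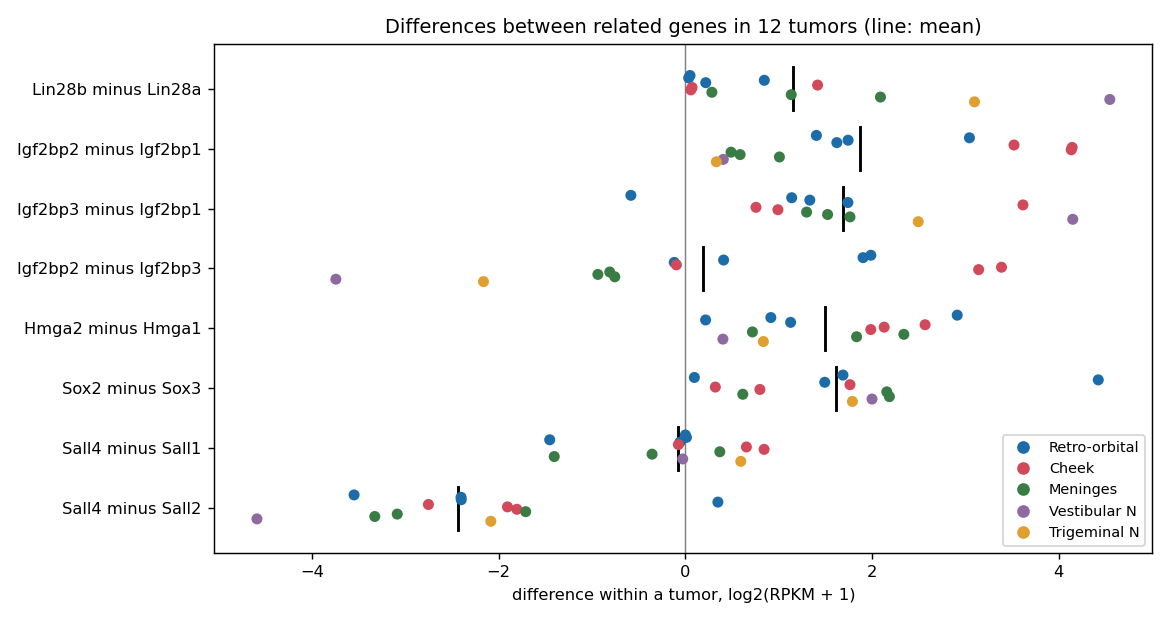
Differences between related genes within each of the 12 tumors on the log2(RPKM + 1) scale, 1 row per pair, 1 point per tumor, coloured by location, with the mean as a black line. Lin28b lies above Lin28a, Igf2bp2 above Igf2bp1, Hmga2 above Hmga1 and Sox2 above Sox3 in 12 of 12 tumors, while Igf2bp2 minus Igf2bp3 falls on both sides of 0.

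Among 14 genes that encode mRNAs bound by Igf2bp proteins or are tied to fetal growth, 12 reached 1 RPKM in 3 or more tumors, beside 62.5% of all genes, and 10 of the 14 had a median of at least 1 RPKM. Actb (median 1763 RPKM), the imprinted H19 (182) and Dlk1 (63.6) had the highest medians. Igf2, the fetal growth factor whose mRNA gives the family its name, ranged from 1.71 RPKM in cheek 2 to 712 in meninges 1, and Afp, a marker of fetal liver, was at most 0.296 RPKM. None of the 11 tested genes passed in a contrast. Their median difference for cheek against meninges was 0.28, beside -0.16 for all genes tested.

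Hmga2 had the highest median of the 10 genes, 14.6 RPKM. It lies on chromosome 10 (120361275 to 120476469, minus strand) and reached 1 RPKM in all 12 tumors. The retro-orbital values were 63.0, 14.5, 5.96 and 14.7 RPKM, the cheek values 26.03, 50.7 and 52.9, the meninges values 5.18, 15.7 and 6.39, the vestibular value 2.82 and the trigeminal value 10.4. Cheek tumors all lay above meninges tumors, and the retro-orbital tumors overlapped both. Cheek and meninges values were likewise separate in 28.7% of all genes tested. At its lowest, in the vestibular tumor, Hmga2 was above 53.9% of genes, and at its highest above 95.9%.

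Cheek exceeded meninges by 2.21 ± 0.72 (SE) on the log2 scale, which did not pass limma's threshold (adjusted p = 0.209). Across locations the adjusted p of Hmga2 was 0.333. The means were 43.2 ± 14.9 RPKM (SD, n = 3) in cheek, 24.5 ± 25.96 (n = 4) in retro-orbital and 9.08 ± 5.73 (n = 3) in meninges tumors. Hmga2 exceeded its relative Hmga1 in 12 of 12 tumors, by 1.5 ± 0.90 (SD; exact p = 0.000488, adjusted p = 0.000977). Hmga1 was itself at 1.07 to 12.6 RPKM. Hmgb1 (median 255 RPKM), Hmgn1 (118) and Hmgn2 (58.3), other small chromatin proteins, had higher medians than either.

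For the other tested genes no location test without the identifier block passed; the blocked values are given above with those of Igf2bp2. Adjusted p across locations was 0.664 for Sox2, 0.375 for Nanog and 0.648 for Lin28b by limma. The largest of their pairwise differences was Nanog in meninges against retro-orbital, 1.93 ± 0.73 (SE; adjusted p = 0.519). With 3 or 4 tumors per location, intervals of this width leave large differences undetectable.

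Levels were next compared over the 12 tumors among the 6 genes that reached 1 RPKM in 3 or more tumors, as 15 pairs. By Pearson r 4 pairs, and by Spearman rho 10, had an adjusted p under 0.05 (permutation test of 100000 resamples, Benjamini-Hochberg over 15).

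Lin28b and Igf2bp3 followed each other most closely, with Pearson r = 0.88 (permutation p = 0.00058, adjusted p = 0.0087) and Spearman rho = 0.87 (adjusted p = 0.0051). The vestibular, trigeminal and cheek 1 tumors were highest in both, and the lowest 2 tumors of Igf2bp3 were among the lowest 3 of Lin28b. Without the vestibular and trigeminal tumors, farthest from the median of Lin28b, r was 0.77 (permutation p = 0.00348). After subtracting location means over 10 tumors r was 0.82 (adjusted p = 0.0363, permutation of the residuals). Leaving out the vestibular tumor alone ended the call (r = 0.78, adjusted p = 0.0799), and no other single tumor did.

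Nanog and Lin28b had r = 0.74 (permutation p = 0.00482, adjusted p = 0.0267) and rho = 0.79, with r = 0.88 without meninges 1 and the vestibular tumor. Within locations r was 0.46 (adjusted p = 0.314), and leaving out any of 5 tumors (retro-orbital 1, cheek 2, cheek 3, meninges 3 or vestibular) ended the call, with adjusted p of 0.0535 to 0.0824. Igf2bp2 and Hmga2 had r = 0.77 (permutation p = 0.00534, adjusted p = 0.0267) and rho = 0.63 (adjusted p = 0.0474). Within locations it was 0.35 (adjusted p = 0.423), so the pair did not hold there, and it lost its call without any of 6 tumors (retro-orbital 1, cheek 2, cheek 3, meninges 1, meninges 3 or vestibular; adjusted p 0.0507 to 0.0824). Without cheek 1 and cheek 3, farthest from the Igf2bp2 median, r was 0.71 (permutation p = 0.0226). Nanog and Hmga2 ran in opposite directions, with r = -0.72 (permutation p = 0.0106, adjusted p = 0.0398) and rho = -0.73, and r = -0.74 within locations (adjusted p = 0.115). That pair lost its call without any of 8 tumors (retro-orbital 1 or 3, cheek 2 or 3, meninges 1, 2 or 3, or vestibular), with adjusted p of 0.0535 to 0.109. Without meninges 1 and the vestibular tumor it was -0.57 (permutation p = 0.0888).

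The other 6 pairs passed in rank only: Sox2 with Nanog, with Lin28b (rho = 0.74, adjusted p = 0.0226), with Igf2bp3 (0.71, 0.0226) and with Hmga2 (-0.71, 0.0226), Nanog with Igf2bp3 (0.71, 0.0226) and Igf2bp3 with Hmga2 (-0.65, 0.0421), all by permutation. The rho of Sox2 with Nanog was 0.80 (permutation p = 0.00283, adjusted p = 0.0146), while Pearson r was 0.48 (permutation p = 0.111, adjusted p = 0.152). Retro-orbital 3, with 24.9 RPKM of Sox2 and 3.24 of Nanog, was the tumor farthest from the Sox2 median together with retro-orbital 2.

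**Figure D4:**
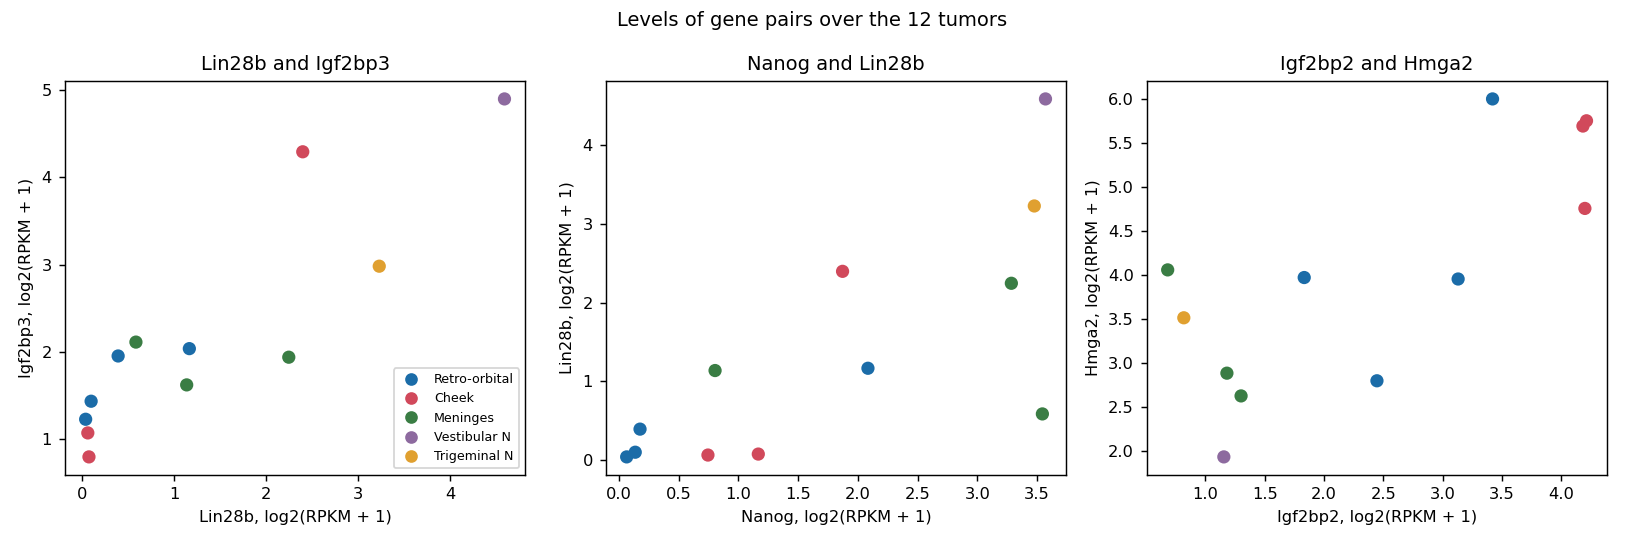
Log2(RPKM + 1) of Igf2bp3 against Lin28b, of Lin28b against Nanog and of Hmga2 against Igf2bp2, 1 point per tumor, coloured by location. In the first panel the vestibular tumor is at the upper right with cheek 1 and the trigeminal tumor next, and in the third the 3 cheek tumors sit together at the right.

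Over the 15043 genes that reached 1 RPKM in 3 or more of the 12 tumors, the genes most like each of the 6 by Pearson r over 12 tumors were as follows. Gna14 (r = 0.96), Tspan33 (0.94) and Gdpd2 (0.93) were nearest to Sox2. Eps8l1 (0.95), Hunk (0.95) and Dsg2 (0.95), a desmosomal cadherin, were nearest to Nanog. Pccb (0.94), Tm9sf1 (0.94) and Unc5d (0.93) led for Lin28b, and Msh3 (0.96), Parg (0.96) and Pccb (0.96) for Igf2bp3, so that Pccb, a subunit of propionyl-CoA carboxylase, was shared by both. Adamts12 (0.95), Colec12 (0.94) and Senp5 (0.92) led for Igf2bp2, and Nptx1 (0.93), Glipr2 (0.91) and Rnf24 (0.91) for Hmga2. These are the highest of many coefficients and carry no test.

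Marker genes of other cell types moved with several of these levels. For the 10 Schwann cell and glial markers, the summed level was 11.3 to 304 RPKM in retro-orbital, 11.9 to 44.3 in cheek and 137 to 491 in meninges tumors, with 158 in the vestibular and 170 in the trigeminal tumor. Of the 10, 8 reached 1 RPKM in 3 or more tumors, and Olig2 did so in none. Across 66 relations of the 6 genes with 11 lists, the mean log2 level of this list rose with Nanog (r = 0.82, rho = 0.73; adjusted permutation p = 0.0308 for r) and with Sox2 (r = 0.72, rho = 0.92; adjusted p = 0.0363). It fell with Hmga2 (r = -0.85, rho = -0.83; adjusted p = 0.0264) and with Igf2bp2 (r = -0.80, rho = -0.69; adjusted p = 0.0398). Without the 2 tumors farthest from its median, r was 0.74, 0.77, -0.83 and -0.79 in that order. Of the 66, 10 had an adjusted p under 0.05 for r and 7 for rho. The other 6 for r were Sox2 with the neural progenitor (r = 0.83, adjusted p = 0.00858) and germ cell lists (0.72, 0.0408), Nanog with the retina and lens (0.79, 0.0308) and the meningeal and fibroblast lists (0.76, 0.0433), Hmga2 with the retina and lens list (-0.80, 0.0308) and Igf2bp2 with the meningeal and fibroblast list (-0.75, 0.0453). The 6 genes of that last list summed to 1402 to 1744 RPKM in cheek and 852 to 1857 in meninges tumors. Of the 8 retina and lens genes, 5 stayed under 1 RPKM in all 12 tumors. Cryab, at 11.4 to 692 RPKM, had by far the widest range of that list, so its relations rest mainly on 1 gene. Lin28b and Igf2bp3 had no adjusted p under 0.05 with any list. The part of these cell types in the levels was not tested.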

How the data were processed

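Total RNA of 12 dissected tumors was depleted of ribosomal RNA and sequenced. According to the study's methods, reads were aligned to mm10 with STAR, uniquely mapped reads were counted on RefSeq genes with HTSeq, and the authors deposited the resulting RPKM values, 1 file per tumor. The labels' processing notes also name bcl2fastq 2.17 and limma. The transcript lengths used were not given in the sources used here. The fragment total that scales the values of each tumor was worked out from their smallest steps.

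Groups were the locations of the labels. RPKM was tested as log2(RPKM + 1), which understates changes of low genes, by limma 3.58.1 in R 4.3.3 with a trended, robust prior variance, Benjamini-Hochberg over all genes tested and a threshold of 0.05. On simulated data with 200 genes raised by 3 log2 units in cheek, it recovered 85.5% of them, and 6.04% of its calls were false. The simulated tumors were independent, and smaller differences were not simulated, so these rates do not carry over to the tumors here. Differences within tumors used exact sign-flip tests, and correlations 100000 resamples, in Python 3.11.15 with scipy 1.17.1. P-values measure the spread between these tumors, some of which may share an animal. Positions are from GENCODE M21 and microRNA and promoter sequences from RefSeq. Named genes are the 10, the 3 highest medians of chosen lists or others singled out after their values were seen, and the 3 nearest genes. The genes and lists were chosen with earlier results of these data known. In total, 27 rows with a date for a name stayed in fits unnamed. One marker gene is not reported here by name.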

Additional observations from a re-analysis of the deposited data

Results flagged for a closer look

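Among the 4 retro-orbital tumors, the distance of an extreme tumor from its neighbour, divided by the whole spread of the 4, was above Dixon's critical value for 4 of the 9 genes that could be screened. Chance gives about 1 in 20 for normally distributed values, and the same screen picked 20.8% of the 19771 genes that varied in these 4 tumors. It was 0.974 for Nanog and 0.913 for Sox2, both for retro-orbital 3, which was far above the others in each. It was 0.966 for Sall4, high in retro-orbital 4 (3.78 RPKM). It was 0.847 for Hmga2, high in retro-orbital 1 (63.0 RPKM). Retro-orbital 3 had the highest summed epithelial (761 RPKM) and neural progenitor (153 RPKM) markers of the 12 tumors; their part was not tested.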

How the results depend on the processing

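The direction of the 6 within-tumor differences that passed, and their side of the threshold, held under every alternative (pseudocount 0.1, averaging over shared identifiers, each tumor left out). The 2 that did not pass had small means whose sign turned: Igf2bp2 minus Igf2bp3 ran from -0.11 (without cheek 2; -0.09 without cheek 3) to 0.54, and Sall4 minus Sall1 from -0.16 to 0.0502 (without retro-orbital 3; 0.0458 without meninges 3). Gene counts of the location fits moved widely. Across locations, 6 genes became 10 without the filter, 19 without trended and robust variance, and 2802 with the identifier as a random block, whose consensus correlation of 0.93 rests on few shared identifiers. Leaving out 1 tumor gave 0 to 198. Cheek against retro-orbital (4) became 2 without the filter or with the random block and 0 to 147 with 1 tumor left out. Meninges against retro-orbital (3) became 7 without the filter, 6 without trend, and 0 to 41. Cheek against meninges (7) became 2 with pseudocount 0.1, 18 without the filter, 22 without trend, 13 with quantile normalization, 4243 with the random block, and 0 to 527. The highest counts came without cheek 1, except 41 without retro-orbital 3, and the cause was not tested. Without cheek 1 the cheek group is cheek 2 and cheek 3, which share an identifier. Leaving out cheek 2 or cheek 3 gave 0 genes called across locations and in every contrast. With the random block, 5 of the 6 tested genes, all but Sox2, passed across locations (adjusted p by limma 0.000125 to 0.0335), and Nanog (-1.60) and Hmga2 (2.13) also passed for cheek against meninges. Of the fitted tumors only cheek 1 and meninges 1 share an identifier across locations, so the blocked calls lean on that pair.

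Igf2bp2 in cheek against meninges was 3.93 and no longer passed with pseudocount 0.1, and stayed within 2.96 to 3.27 with 1 tumor left out. Averaging shared identifiers gave 7 member pairs with an adjusted p under 0.05 in place of 4. Nanog and Hmga2 had r = -0.65 with pseudocount 0.1, -0.68 with quantile normalization and -0.57 without the 2 farthest tumors, and Igf2bp2 and Hmga2 0.71 without the 2 farthest, none of which passed. Chosen after seeing the data, subtraction of location means gave 0.46 for Nanog and Lin28b, -0.74 for Nanog and Hmga2 and 0.35 for Igf2bp2 and Hmga2, none of which passed. Leaving out 1 tumor, also chosen after seeing the data, gave 0.70 to 0.89 for Nanog and Lin28b, -0.78 to -0.65 for Nanog and Hmga2, 0.78 to 0.92 for Lin28b and Igf2bp3, and 0.72 to 0.84 for Igf2bp2 and Hmga2. Numbers of tumors reaching a gene's threshold depend on it: at 0.5 RPKM Sall4 and Igf2bp1 reached 5 tumors each and Lin28a 1, and at 5 RPKM Hmga2 still reached 11.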

Other observations

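Marker lists of other tissues varied over the 12 tumors as follows, given as summed RPKM. Neuronal markers were 19.6 in cheek 1 and 546 in cheek 2, and skeletal muscle markers 5.55 in meninges 2 and 584 in cheek 2. The tumor with the highest sum of both was thus one of the 3 with Igf2bp2 near 17 RPKM. Its neuronal sum was mostly the neurofilament genes Nefl (412 RPKM) and Nefm (91.7), with Snap25 at 25.5 and Stmn2 at 16.8. Rbfox3 (0.0623), Syt1 (0.242), Elavl3 (0.0305) and Elavl4 (0.246) were low in cheek 2, so the list did not move as a whole. Epithelial markers were 5.76 in retro-orbital 2 and 761 in retro-orbital 3, the tumors with the lowest and highest Sox2. Proliferation genes were within 122 to 441, lowest in retro-orbital 3. Retina and lens markers, of which 5 of 8 genes stayed under 1 RPKM in all 12 tumors, were led by Cryab, a heat shock protein found in many tissues, at a median of 121 RPKM.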
